A study of Equus caballus with 18 samples.

Results

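The proteins of the cytosolic ribosome are described here in the superficial gluteal muscle of exercised Thoroughbred horses given clenbuterol, a β2-adrenergic agonist that widens the airways and also acts on muscle and fat. A gene was taken when its platform symbol was that of a ribosomal protein of the large subunit (RPL, RPLP) or of the small subunit (RPS, RPSA) and its probeset named no other gene. This gave 69 genes, 42 of the large and 27 of the small subunit, of 16661 different symbols measured. They had 78 probesets, and for the 9 genes with more than 1 the brightest on average stood for the gene. A further 6 probesets named a ribosomal protein together with another gene and were left out. The messages were measured in 18 biopsies, each on an EquGene-1.0-st array of its own. The low dose regimen had 5 horses (L1 to L5), each with a biopsy from the day before the drug and from day 14 of 0.8 μg/kg orally BID. The escalating regimen had 4 other horses (E1 to E4), each with a biopsy from the day before the drug and from day 28, after steps of 0.8, 1.6 and 2.4 μg/kg of 3 days each, when the dose was 3.2 μg/kg BID. All were healthy adults of 2 to 6 years kept in race training, none was left without the drug, and each horse was compared with its own baseline, so that time in the study and the drug cannot be told apart. The muscle label was checked against 13 fibre genes, of which CKM (muscle creatine kinase) read 12.8 ± 0.03 and ACTA1 (skeletal α-actin) 11.7 ± 0.12 at the escalating dose baseline (mean ± SD on the log2 scale, n = 4).

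A ribosome reads messenger RNA with its small subunit and joins amino acids with its large subunit. The genes of its proteins are transcribed in step with each other in most tissues, and their messages begin with a tract of pyrimidines, the 5′ TOP motif, through which the kinase complex mTORC1 and the protein LARP1 set their translation and stability. In skeletal muscle the number of ribosomes sets how much protein a fibre can make, and ribosome production is known to rise when muscle is loaded and to fall when it wastes.

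The values are log2 signals normalized by the authors with RMA, and the regimens were not on one scale. Taken over all its probesets, the median of an array was 2.42 to 2.74 in the low dose regimen. In the escalating regimen it was 4.06 to 4.22 at baseline and 4.45 to 4.5 on day 28. Because the regimens differed, levels were compared only within a regimen. Within the escalating regimen the scale of the arrays also differed between baseline and day 28, which cannot be told apart from time or the drug. In the low dose regimen the arrays of L4 and L5 stood apart from those of L1 to L3. The SD over the probesets of an array was 1.2 to 1.41 in L4 and L5 and 1.67 to 1.75 in L1 to L3. Over the 69 genes, the median correlation of an array with the other arrays was 0.556 for L5 on day 14, 0.748 for L5 at baseline, and 0.889 and 0.898 for L4, whereas it was 0.933 to 0.978 for the other 14 arrays. The low dose median over the genes, the number called and the number that differed between regimens are therefore given with and without these horses. Unless stated, other low dose results are from all 5 horses. In the escalating regimen the SD over the probesets was 1.71 to 1.80 at baseline and 1.49 to 1.53 on day 28, lower in each horse, and brighter probesets had more negative changes than dim ones, which bears on every change given below. In biopsies, fewer cells of a type and less RNA per cell cannot be told apart.

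The genes were among the brightest probesets of a muscle array. At the escalating dose baseline the median of the 69 genes was 8.22, 8.16, 8.2 and 8.2 in E1 to E4, which put it at the 96.1 to 96.5 percentile of the probesets of each array. On day 28 it was 6.24, 6.15, 6.11 and 6.25, at the 88.1 to 89.3 percentile. The 4 values of day 28 lay close together and all were below the 4 baseline values, with means of 8.20 ± 0.03 and 6.19 ± 0.07 (SD, n = 4). In the low dose regimen the median of the genes was 7.53, 7.69, 7.65, 6.05 and 5.62 at baseline in L1 to L5 and 7.71, 7.75, 7.53, 6.85 and 4.26 on day 14. These 2 sets of values overlapped, and L5 on day 14 was the lowest, at the 88.4 percentile of its array against 96.3 to 97.9 for the other low dose arrays.

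**Figure D1:**
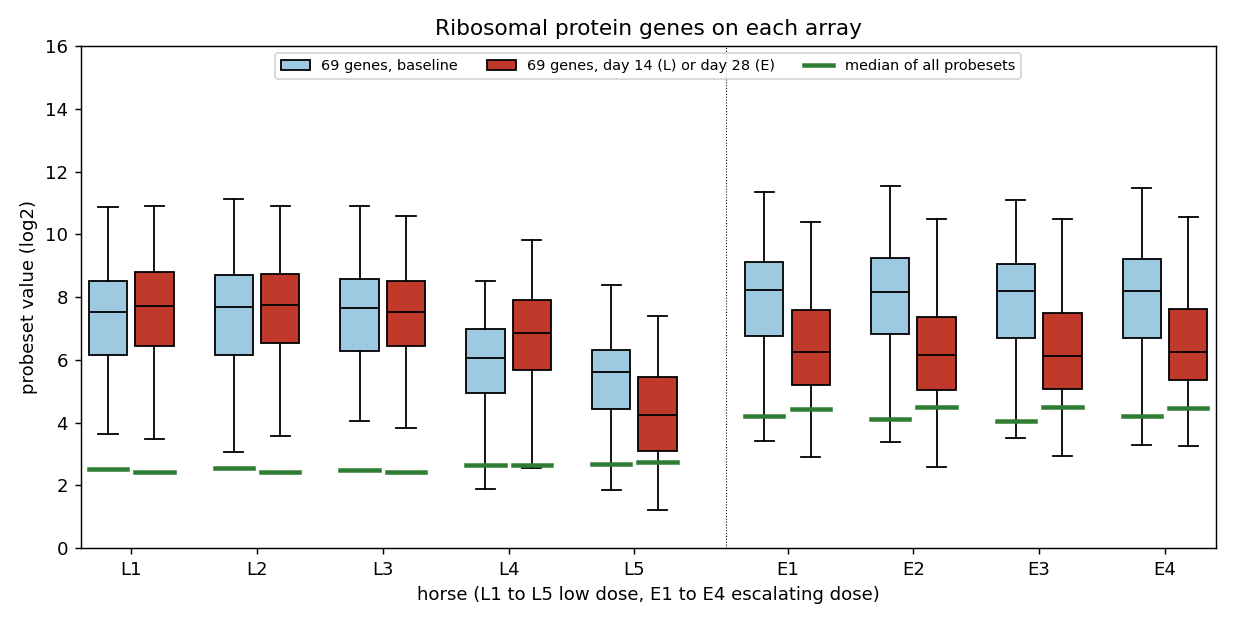
Values (log2) of the 69 ribosomal protein genes on each of the 18 arrays, with boxes from the lower to the upper quartile, a line at the median, whiskers to the farthest gene within 1.5 box lengths, and a green line at the median of all probesets of the array. The boxes of day 28 sit below those of baseline in E1 to E4 (medians 6.11 to 6.25 against 8.16 to 8.22), while in L1 to L3 the boxes of baseline and day 14 lie level and those of L4 and L5 are lower and uneven.

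On day 28 of the escalating dose, 64 of the 69 genes were lower than at baseline and 0 were higher (limma with horse as a block, adjusted p under 0.05), beside 20.2% lower and 24.5% higher of all 30559 probesets. The median log2 change of the 69 genes was -1.46, with quartiles of -1.81 and -1.03, whereas the median of all probesets was 0.08. In 63 of the 69 genes every day 28 array was below every baseline array, which held for 19.7% of all probesets, and in 0 genes was every day 28 array above, which held for 24.1%. At an unadjusted p under 0.05, 65 genes were lower and 0 higher, beside 22.9% and 28.4% of all probesets, and 66 genes had a change below 0, beside 43.9%. The value was lower in each of the 4 horses for 64 genes, beside 24.8% of all probesets. Of the 69 genes, 56 fell more than 2-fold, beside 12.3% of all probesets, and 14 fell more than 4-fold, beside 2.33%. The adjusted p from limma of the 64 genes ran from 6.45e-05 to 0.0398. When the arrays were rescaled by cyclic loess, which takes out differences that run with brightness, the median change was -0.52 and 36 of the genes were called lower. Of all 30559 probesets, 5643 were then called lower and 6745 higher.

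**Figure D2:**
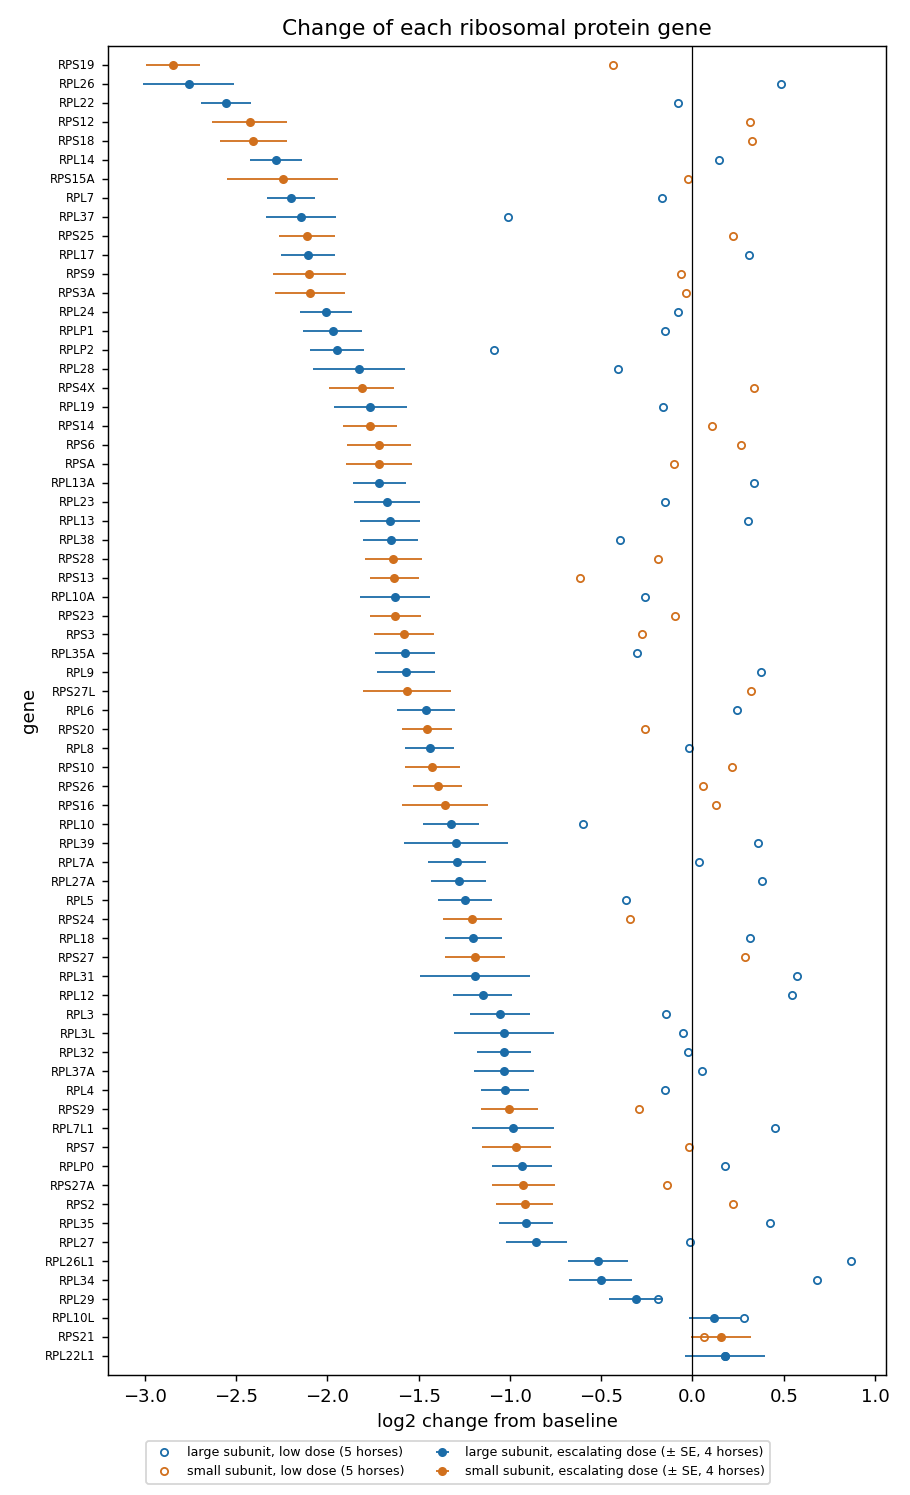
Log2 change from baseline of each of the 69 genes, ordered by the change at the escalating dose (filled points with standard errors, 4 horses), with the change at the low dose as open points (5 horses) and subunits in blue (large) and orange (small). The filled points run from -2.85 for RPS19 to 0.18 for RPL22L1 and 64 were called lower, while the open points scatter on both sides of 0, from -1.09 for RPLP2 to 0.87 for RPL26L1.

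In the small subunit, 26 of 27 genes fell and RPS21 was not called. The gene with the most negative change of all 69 was RPS19, whose protein is needed to mature the small subunit and is altered in human Diamond-Blackfan anaemia. Its values in E1 to E4 were 8.22, 8.28, 8.44 and 8.11 at baseline and 5.2, 5.33, 5.57 and 5.57 on day 28 (probeset 14954338). The groups were far apart, and the fall was 7.19-fold, a log2 change of -2.85 (SE 0.15, adjusted p from limma 6.45e-05). RPS12, a protein of the beak of the small subunit, read 6.9, 7.05, 7.82 and 7.51 at baseline and 5.12, 4.35, 4.96 and 5.15 on day 28 (probeset 14953295). Again no day 28 value reached a baseline value, and the log2 change was -2.43 (SE 0.20, adjusted p from limma 0.000169). RPS18, which sits in the head of the subunit next to the bound tRNA, read 8.25, 8.76, 8.5 and 8.36 at baseline and 6.3, 5.92, 5.92 and 6.11 on day 28 (probeset 15027969). Its fall was 5.3-fold, a log2 change of -2.41 (SE 0.18, adjusted p from limma 0.000121). Further falls of over 4-fold were those of RPS15A (-2.25), RPS25 (-2.11), RPS9 (-2.10) and RPS3A (-2.10), and the change of RPS15A was the most uneven of these over the horses, at -1.67, -2.18, -3.44 and -1.69 in E1 to E4.

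The other small subunit genes had more moderate falls. RPS6 encodes the protein that the S6 kinases phosphorylate downstream of mTORC1. It read 9.61, 9.42, 9.92 and 9.7 at baseline and 8.25, 7.86, 7.75 and 7.92 on day 28. The groups did not overlap, and the log2 change was -1.72 (SE 0.17, adjusted p from limma 0.000316). RPSA, a protein of the small subunit that is also known as the laminin receptor, read 8.99, 8.5, 8.68 and 8.95 at baseline and 7.49, 7.11, 6.42 and 7.23 on day 28. E3 had the lowest value on the drug, and the log2 change was -1.72 (SE 0.18, adjusted p from limma 0.000374). Under cyclic loess it was -0.48 and not called (adjusted p from limma 0.0604). RPS4X, an X-linked gene in most mammals, had a log2 change of -1.81, from 7.08 to 7.47 at baseline to 5.02 to 5.72 on day 28. Among proteins that line the path of the messenger RNA, RPS3 had a change of -1.58, RPS23, at the decoding centre, -1.63 and RPS2 -0.92. RPS14, whose loss is a feature of the human 5q- syndrome, had a log2 change of -1.77. The smallest change among the 26 called small subunit genes was that of RPS2, followed by RPS27A, a protein made as a fusion with ubiquitin. RPS27A read 5.53, 5.07, 5.12 and 5.35 at baseline and 5.03, 3.79, 4.29 and 4.25 on day 28, with E1 the highest in both, and its log2 change was -0.93 (SE 0.17, adjusted p from limma 0.00409).

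In the large subunit, 38 of 42 genes fell. RPL26, a protein at the rim of the exit tunnel for the new chain that in human cells also binds the message of p53, read 8.86, 8.84, 8.3 and 8.86 at baseline in E1 to E4 and 5.84, 5.34, 6.27 and 6.37 on day 28 (probeset 14968666). E3 was the lowest at baseline and E2 the lowest on the drug, the groups did not overlap, and the log2 change was -2.76 (SE 0.25, adjusted p from limma 0.000204). RPL22, a gene without which mice are viable and whose protein also binds viral RNA, read 6.92, 6.41, 6.79 and 6.6 at baseline and 4.24, 3.96, 4.31 and 3.99 on day 28 (probeset 15018901). Its fall was 5.88-fold, a log2 change of -2.56 (SE 0.14, adjusted p from limma 6.45e-05). RPL14 had the most even baseline of the leading genes, at 8.27, 8.16, 8.24 and 8.2, and read 6.16, 5.75, 6.1 and 5.74 on day 28 (probeset 15000943). It fell 4.86-fold, a log2 change of -2.28 (SE 0.14, adjusted p from limma 7.93e-05).

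Other large subunit genes are given by the place of their protein. At the exit tunnel, the log2 change was -2.11 for RPL17, -1.03 for RPL4 and -0.91 for RPL35. RPL39, a small protein inside the tunnel, read 7.39, 6.69, 7.21 and 7.42 at baseline and 5.51, 6.54, 5.7 and 5.78 on day 28. E2 was the horse with the least change, -0.15, and over the 4 horses the log2 change was -1.30 (SE 0.29, adjusted p from limma 0.00907). The RPL39 call was lost after quantile normalization (-0.81, adjusted p from limma 0.0878) and cyclic loess (-0.36, adjusted p from limma 0.412), and when each probeset was tested alone (adjusted p 0.107). Near the peptidyl transferase centre, RPL3 had a change of -1.05, RPL8 of -1.44 and RPL10, which is among the last proteins to join the subunit, of -1.32. RPL5, which carries the 5S ribosomal RNA and can bind MDM2, read 10.64, 10.46, 10.55 and 10.52 at baseline and 9.5, 8.89, 9.42 and 9.37 on day 28. Every horse was lower, with a log2 change of -1.25 (SE 0.15, adjusted p from limma 0.000597). RPL5 was not called under cyclic loess (-0.29, adjusted p from limma 0.159) or in the fit of all 18 arrays (adjusted p from limma 0.0935), and RPL10 was not called under cyclic loess (-0.35, adjusted p from limma 0.0706). RPL23, at the face of the subunit where EIF6 binds, fell by 1.67, and RPL24 and RPL19, which form bridges to the small subunit, had log2 changes of -2.01 and -1.77. RPL35A, another gene altered in human Diamond-Blackfan anaemia, went from 6.21 to 6.42 at baseline to 4.21 to 5.14 on day 28, a log2 change of -1.58 (SE 0.16, adjusted p from limma 0.000356). RPL38, which in mice is needed to translate messages of homeobox genes, fell by 1.65. RPL31 was the only called gene with overlapping groups. Its change was 0.00 in E1, -1.76 in E2, -1.25 in E3 and -1.75 in E4, and over the horses it was -1.19 (SE 0.30, adjusted p from limma 0.0159).

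The proteins of the P stalk, the arm of the large subunit that recruits and activates the elongation factors, did not change by equal amounts. RPLP1 read 6.44, 6.62, 6.66 and 6.37 at baseline and 4.7, 4.78, 4.28 and 4.45 on day 28. RPLP2, its partner in the stalk dimers, read 9.21, 9.07, 9.06 and 9.24 at baseline and 7.53, 7.07, 7.1 and 7.09 on day 28. In the probesets used, the log2 changes of these partners were near each other, at -1.97 (SE 0.16, adjusted p from limma 0.000152) and -1.95 (SE 0.15, adjusted p from limma 0.000117). Their second probesets were not. That of RPLP2 gave -2.47, and that of RPLP1, with a baseline mean of 3.92, gave -0.35 and was not called (adjusted p from limma 0.104). RPLP0, which anchors the dimers, read 11.25, 11.32, 11.08 and 11.34 at baseline and 10.4, 10.32, 10.49 and 10.04 on day 28. Its groups did not overlap either, and its log2 change was -0.94 (SE 0.16, adjusted p from limma 0.00313). Under cyclic loess RPLP0 was not called, at -0.15 (adjusted p from limma 0.573). The difference in change between the 3 probesets used was not tested.

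The 6 measured paralogs, close copies of a core gene with a separate locus, had a median log2 change of -0.75, and 4 of them were called lower. RPL3L takes the place of RPL3 in striated muscle. It read 6.62, 7.43, 7.7 and 6.71 at baseline and 6.24, 6.03, 5.81 and 6.25 on day 28. All 4 day 28 values were below the baseline values, but the change was -1.40 and -1.89 in E2 and E3 against -0.38 and -0.46 in E1 and E4. Over the horses it was -1.03 (SE 0.27, adjusted p from limma 0.0195), beside -1.05 (SE 0.16) for RPL3. The RPL3L call was lost without E2 (-0.91, adjusted p from limma 0.0818) and without E3 (-0.75, adjusted p from limma 0.0634), and under quantile normalization (-0.52, adjusted p from limma 0.129) and cyclic loess (-0.07).

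RPS27L, which p53 induces in human cells, read 6.75, 7.28, 7.53 and 6.81 at baseline and 6.11, 5.34, 5.61 and 5.06 on day 28. The groups did not overlap, and its log2 change of -1.56 (SE 0.24, adjusted p from limma 0.00185) stood beside -1.19 (SE 0.16) for RPS27, which was not called under cyclic loess (-0.35, adjusted p from limma 0.132). RPL7L1 read 3.72, 4.33, 4.48 and 3.56 at baseline and 2.9, 3.06, 2.93 and 3.27 on day 28. Its log2 change was -0.98 (SE 0.22, adjusted p from limma 0.0101), beside -2.20 (SE 0.13) for RPL7. RPL26L1 read 4.6, 5, 4.73 and 4.72 at baseline and 4.49, 4.24, 3.97 and 4.28 on day 28. It had the smallest called change of all, -0.52 (SE 0.17, adjusted p from limma 0.0398), beside -2.76 for RPL26, and its call was lost without E2, E3 or E4 (adjusted p from limma 0.145, 0.129 and 0.0875) and in the limma fit of all 18 arrays (adjusted p 0.0773). In the paired test of each probeset alone, without moderated variances, 4 paralogs lost their call, RPS27L with an adjusted p of 0.0529, RPL7L1 with 0.0949, RPL26L1 with 0.106 and RPL3L with 0.142.

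The other paralogs, RPL10L and RPL22L1, were not called. RPL10L, an intronless copy that stands in for RPL10 in mouse male germ cells, read 3.75, 3.92, 3.5 and 3.75 at baseline and 3.95, 3.94, 3.76 and 3.75 on day 28. Its log2 change was 0.12 (SE 0.14, adjusted p from limma 0.53), beside -1.32 for RPL10. RPL22L1 read 2.96, 3.38, 3.64 and 3.52 at baseline and 3.93, 3.32, 3.56 and 3.4 on day 28. E1 alone moved by more than 0.12, and the log2 change was 0.18 (SE 0.22, adjusted p from limma 0.555), beside -2.56 for RPL22. These values lay below the median of all probesets on the same arrays. Ribosomal protein genes also have many near-identical copies in mammalian genomes, and how far a probeset picks up RNA of a copy was not tested.

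**Figure D3:**
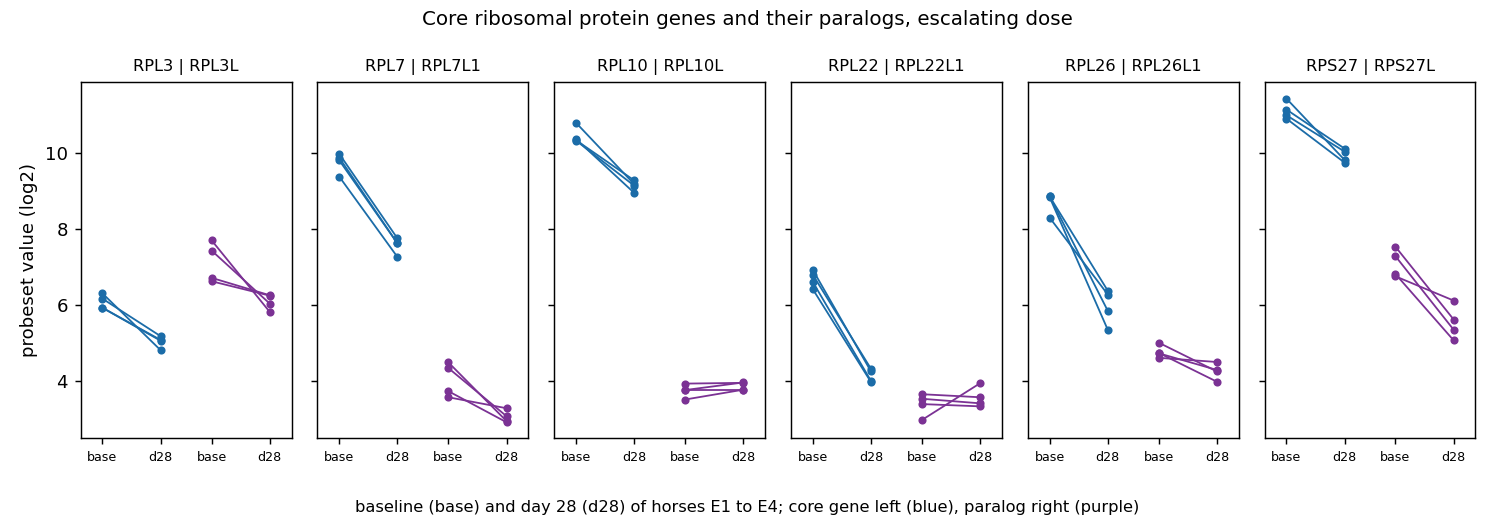
Probeset values (log2) before the drug and on day 28 in the 4 horses of the escalating regimen, for 6 core genes (blue, left in each panel) and their paralogs (purple, right in each panel), with a line for each horse. All core genes go down in every horse, as do RPL3L, RPL7L1, RPL26L1 and RPS27L, while RPL10L and, apart from E1, RPL22L1 run nearly level with mean changes of 0.12 and 0.18.

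The 5 genes that were not called were all among the dimmest. Of the 7 genes with a baseline value under 5, 2 were called lower and the median log2 change was -0.31. All 11 genes with a baseline of 5 to 7, all 31 from 7 to 9 and all 20 from 9 upward were called lower, with medians of -1.29, -1.65 and -1.45. RPL34 read 3.55, 3.37, 3.57 and 3.29 at baseline and 2.95, 2.58, 2.95 and 3.29 on day 28. It did not move in E4, and its log2 change of -0.50 (SE 0.17) missed the threshold with an adjusted p from limma of 0.0512. It was called without E4 (-0.67, adjusted p from limma 0.0238) and in each of the 3 rescalings. RPL29, which also binds heparin, was lower in each of 4 horses, with a log2 change of -0.31 (SE 0.15, adjusted p from limma 0.138), and was called in the 3 rescalings. RPS21 read 3.42 to 3.89 at baseline and 3.54 to 3.91 on day 28, a log2 change of 0.16 (SE 0.16, adjusted p from limma 0.481).

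The second probesets of 9 genes gave another reading of the same messages. Of these 9, 6 were called lower. RPL19 gave -1.67 beside the -1.77 of the probeset used, RPL7 -1.98 beside -2.20, RPSA -1.89 beside -1.72 and RPL6 -1.02 beside -1.46. For RPLP2 the second probeset gave -2.47 beside -1.95, and for RPS10, a protein of the head of the small subunit, -3.04 beside -1.43. The remaining 3, for RPL5, RPL35 and RPLP1, had a baseline value under 4 and log2 changes of -0.04, -0.15 and -0.35, none of them called.

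The small subunit genes had a median log2 change of -1.63 and the large subunit genes of -1.31, a difference of 0.32. The difference had the same sign in every horse, 0.21, 0.20, 0.13 and 0.20 in E1 to E4. It was 0.17 when the paralogs, 5 of which belong to the large subunit, were left out, and then 0.12, 0.03, 0.10 and 0.03 in the 4 horses. It was 0.04 after quantile normalization and 0.03 after cyclic loess, and 0.16 without E2. Against probesets of like brightness, the median was -0.67 for either subunit. The interquartile range of the changes was -1.75 to -1.03 in the large subunit and -1.95 to -1.28 in the small subunit, so that the subunits overlapped over most of their range. The 28 universal proteins, those with a bacterial counterpart, were all called lower with a median of -1.58. Of the 35 other core genes, 32 were called lower, also with a median of -1.58.

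Because changes at the escalating dose ran with brightness, each gene was set against the other probesets of its own brightness group, which was 1 of 10 groups of equal size by the mean over the 8 arrays. In the brightest group, 45 of the 45 ribosomal protein genes were called lower (median log2 change -1.58). Of the 3006 other probesets in that group 65.3% were called lower, with a median of -1.05, and 36 of the 45 genes were below that median. Of these 45 genes 40 fell more than 2-fold and 10 more than 4-fold, beside 51.5% and 12% of the others, and all 45 were lower in every horse, beside 67.7%. In the next group all 10 genes were called lower with a median of -1.61, against 48.8% and -0.52 for the others. Over all groups 60 of the 69 genes were below the median of their group, and the median difference was -0.67, with -0.70, -0.66, -0.65 and -0.78 in E1 to E4. The most negative of these differences were those of RPL22 (-2.41), RPS15A (-2.28) and RPS12 (-1.91). The mean that set the groups included day 28, so a large fall itself could place a gene in a dimmer group with a less negative median. The group medians for these genes were -0.14, 0.03 and -0.52, and their differences are in part built in by the grouping. The 9 genes above their group median were all in the brightest group and exceeded it by 0.02 to 0.20, among them RPL27, RPL35, RPS2, RPLP0 and RPL3L. The size of this difference depended on the grouping. The median difference was -0.38 when only probesets with a single symbol were taken, -0.30 when brightness was taken from the baseline arrays alone, and -0.55 after cyclic loess. How many genes lay below their group median by baseline brightness was not counted.

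**Figure D4:**
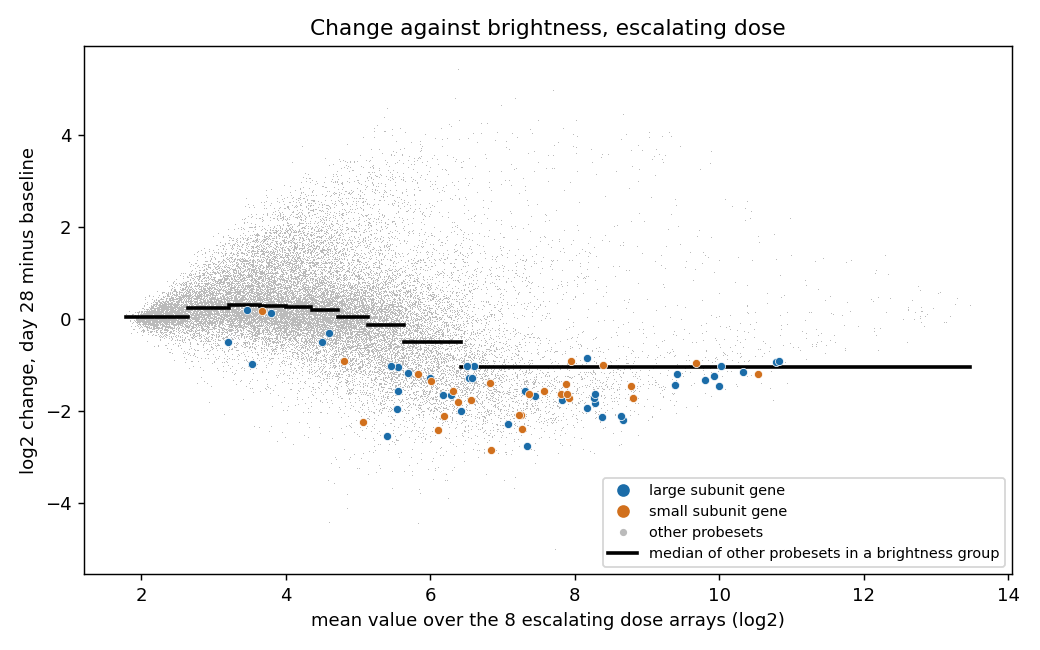
Log2 change on day 28 of the escalating dose against the mean value over the 8 arrays, for all other probesets (grey), the large subunit genes (blue) and the small subunit genes (orange), with a black line at the median of the other probesets in each of 10 brightness groups. The black line lies between 0.03 and 0.30 in the 7 dimmest groups and reaches -1.05 in the brightest, and 60 of the 69 genes lie below it.

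The 4 horses of the escalating regimen were alike. Their median changes over the 69 genes were -1.42, -1.56, -1.58 and -1.45 in E1 to E4. Of the genes, 65, 67, 68 and 66 had a lower value, beside 48.1%, 43.0%, 39.3% and 48.1% of all probesets. The order of the genes by change was also similar between horses, with Spearman correlations of 0.654 to 0.768 for the 6 pairs of horses (n = 69 genes, which share the arrays and the dependence on brightness). The most negative change within a horse was that of RPS19 in E1 (-3.02), RPL26 in E2 (-3.50), RPS15A in E3 (-3.44) and RPL22 in E4 (-2.61).

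**Figure D5:**
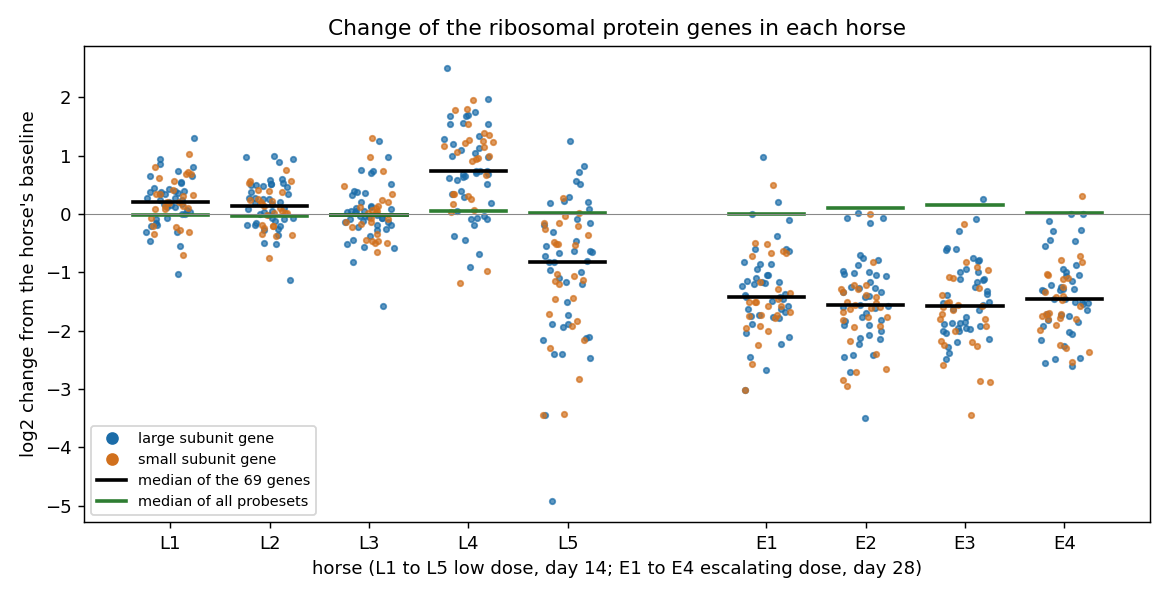
Log2 change of each of the 69 genes from the horse's own baseline in the 9 horses, with large subunit genes in blue, small subunit genes in orange, a black bar at the median of the 69 genes and a green bar at the median of all probesets. In E1 to E4 the black bars lie between -1.58 and -1.42, while in the low dose horses they lie at 0.21, 0.14 and -0.02 in L1 to L3, 0.74 in L4 and -0.82 in L5.

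On day 14 of the low dose, 0 of the 69 genes were called in either direction by limma, and 0 of all 30558 probesets were called (background 0%). At an unadjusted p under 0.05 from limma, 1 gene was lower and 3 were higher, beside 4.35% lower and 4.37% higher of all probesets. The median log2 change over the genes was -0.01 and 35 of the 69 values were lower, against 48.7% of all probesets. The medians were 0.01 for the large and -0.02 for the small subunit. No gene had all day 14 values below, or all above, all baseline values, which held for 0.468% and 0.252% of all probesets.

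The low dose horses differed in direction. The median over the genes was 0.21 in L1, 0.14 in L2 and -0.02 in L3, but 0.74 in L4 and -0.82 in L5. In L4, 58 genes had a higher and 11 a lower value, beside 45.3% of all probesets with a lower value. In L5, 57 genes had a lower value, beside 48.5% of all probesets. The change was above 1 for 28 genes in L4 and below -1 for 31 genes in L5. The share of all probesets beyond these limits was not counted. The most negative change, in L5, was -4.91 for RPL37, a zinc-binding protein of the large subunit. Without L5 the median over the genes was 0.33, without L4 it was -0.12, and without both it was 0.18, and 0 genes were called in each of these fits. The order of the genes was similar between L1 and L2 (Spearman correlation 0.652) and between L2 and L3 (0.522), less so between L1 and L3 (0.268), and with L4 or L5 it was -0.196 to 0.133 (n = 69 genes that share the arrays). On the deposited scale none of these 5 horses had a median change as negative as those of E1 to E4, but the regimens were not on one scale. By percentile within the array, the median of the genes in L5 went from 96.3 at baseline to 88.4 on day 14. In E1 to E4 it went from 96.1 to 96.5 at baseline to 88.1 to 89.3 on day 28.

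The gene with the smallest p in the negative direction was RPLP2. It read 7.87, 8.21, 8.02, 5.77 and 6.32 at baseline and 6.85, 7.08, 6.44, 6.17 and 4.22 on day 14. L4 moved up while the other 4 horses moved down, and the log2 change was -1.09 (SE 0.33, limma p 0.0124, adjusted p 0.491). The second probeset of RPLP2 had a low dose change of -0.16. In the positive direction RPL34 read 1.72, 1.64, 1.96, 2.29 and 1.38 at baseline and 2.09, 2.64, 2.7, 2.88 and 2.1 on day 14. It was higher in 5 of 5 horses, with a log2 change of 0.68 (SE 0.15, limma p 0.00238, adjusted p 0.444). This probeset was dim, with each baseline value below the median of all probesets of its array (2.5 to 2.69). RPL26L1 read 3.65, 3.83, 4.06, 2.29 and 2.58 at baseline and 4.46, 4.78, 4.42, 3.98 and 3.1 on day 14, with a log2 change of 0.87 (SE 0.21, limma p 0.00426, adjusted p 0.455). It too was higher in every horse, as were RPL13A, RPL18, RPS2 and RPL22L1, none of which had an unadjusted p under 0.05. These 6 genes of 69 stand beside 4.87% of all probesets that were higher in every horse. RPL26 had a log2 change of 0.49 (SE 0.19, limma p 0.0382, adjusted p 0.552).

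The regimens differed in dose and day together, and their horses were different animals. The difference between the changes was tested with limma over the 18 arrays together. The change was more negative at the escalating than at the low dose in 51 of the 69 genes and more positive in 0, beside 16.9% and 19.7% of all probesets. The median difference over the genes was -1.45. RPL26, at -2.76 against 0.49, had a difference of -3.25 (SE 0.33, adjusted p from limma 5.09e-05). For RPS12 the changes were -2.43 and 0.31, and the difference was -2.74 (SE 0.30, adjusted p from limma 7.89e-05). Of the 69 genes, 18 did not pass this test, and several of these had a called fall on day 28. Among them, RPLP2 (difference -0.86, adjusted p from limma 0.135), RPL10 (-0.72, adjusted p from limma 0.21) and RPL5 (-0.88, adjusted p from limma 0.387) passed without L5. RPLP0 (-1.11, adjusted p from limma 0.0551) passed without L2 and without L4. RPL37 and RPS24 (adjusted p from limma 0.384 and 0.437) were others with a called fall that did not pass the test. With L4 and L5 left out, 64 genes passed it, and after quantile normalization of the 18 arrays together 33 did. The share of all probesets that passed in these fits was not counted, so these counts cannot be set against a background.

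Other genes of translation were taken from lists made for this description. Of 19 further translation genes with 5′ TOP messages, 18 fell and none rose with the escalating dose (median log2 change -1.38). EEF1B2, which recharges elongation factor 1A with GTP, changed by -2.86 (SE 0.16), FAU, which encodes a ubiquitin-like protein fused to ribosomal protein S30, by -2.78 (SE 0.17) and EEF2, the translocation factor, by -2.62 (SE 0.13). PABPC1, the poly(A)-binding protein, was not called at -0.43 (SE 0.17, adjusted p from limma 0.0746). Of 21 genes of mTORC1 and translation control, 17 fell and 1 rose (median -1.44). MTOR itself changed by -1.44 (SE 0.15), LARP1 by -1.72 (SE 0.18) and EIF4EBP2, a repressor of cap-dependent translation, by -2.26 (SE 0.23). EIF2AK3, the stress kinase PERK, was the gene that was higher, at 0.58 (SE 0.17), and RPS6KB1, an S6 kinase, was not called at -0.20 (SE 0.19).

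Ribosome biogenesis factors, which make and process the ribosomal RNA and assemble the subunits in the nucleolus, were less uniform. Of 42 measured, 18 fell, 2 rose and 22 were not called (median log2 change -0.37). NOP16 changed by -1.75 (SE 0.19), EIF6, which keeps new large subunits from joining too early, by -1.55 (SE 0.18), and NCL, the nucleolar protein nucleolin, by -0.84 (SE 0.18). MYC, a transcription factor that drives ribosome production, changed by -0.63 (SE 0.16). GNL3 was higher at 0.88 (SE 0.24) and UTP18 at 0.63 (SE 0.17), and NPM1, nucleophosmin, was not called at 0.01 (SE 0.20). Of 66 proteins of the mitochondrial ribosome, a separate machine for the messages of the mitochondrial genome, 50 fell and 0 rose (median -0.91). MRPL40 changed by -2.66 (SE 0.23) and MRPL35 by -2.57 (SE 0.20). These counts stand against 20.2% lower and 24.5% higher of all probesets, and the lists were not set against probesets of like brightness. At the low dose 0 genes of these lists were called.

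Markers of other cells and tissues moved on the same arrays. On day 28 of the escalating dose, 5 of 13 muscle fibre genes, 5 of 7 endothelial genes, 2 of 6 adipocyte genes and 1 of 7 skin genes were lower. In contrast, 6 of 10 leukocyte genes, 2 of 3 red blood cell genes, 3 of 7 skin genes and 598 of 668 olfactory receptor genes were higher. Over all probesets 20.2% were lower and 24.5% higher, and the markers too were not set against probesets of like brightness. The summed level of the muscle fibre genes was 15.2 to 15.3 (log2) at baseline and 14.9 to 15.0 on day 28, that of the endothelial genes 9.14 to 9.76 and 7.62 to 7.92, and that of the leukocyte genes 7.58 to 8.10 and 8.77 to 9.15. The adipocyte sum was 8.29 to 11.6 and 7.96 to 8.25, the skin sum 6.08 to 8.28 and 6.67 to 6.99, the red blood cell sum 4.63 to 4.77 and 5.06 to 5.50, and the olfactory receptor sum 13.0 to 13.4 and 15.5 to 15.7. At the low dose the skin sum went from 5.40 to 9.77 at baseline to 4.69 to 5.60 on day 14. The part of these shifts in the falls of the ribosomal protein genes was not tested.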

How the data were processed

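Superficial gluteal muscle RNA of 9 horses, before and during clenbuterol, was hybridized to 18 equine gene arrays (EquGene-1.0-st). The authors made the deposited log2 values by RMA in Affymetrix Expression Console; its version is not given in the sources used here. Which arrays they normalized together is also not given, and RMA sets probe signals to a common distribution over the arrays it treats together, so a change is relative to the other probesets. Arrays carry no counts or depth, and the number of horses limits the precision.

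The 30559 probesets were taken as deposited and fitted with limma 3.58.1 (R 4.3.3). A single missing value, in L4 before the drug, left 30558 probesets for fits that include this array. Symbols are those of the platform's annotation table. Each regimen was fitted with horse as a block, the horse being given in the sample titles, with moderated variances and two-sided tests. Benjamini-Hochberg adjustment ran over all probesets, with calls at an adjusted p under 0.05. Deviations of a horse's arrays from their group means correlated at 0.42 to 0.705 in L1 to L5 and at -0.0223 to 0.124 in E1 to E4. Brightness groups, subunits and gene lists were described by medians and counts, without a test. Each fit was also tested on simulated data.

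The members, the gene lists and the rule for named genes were chosen with earlier results of these data known. Named were the 6 most negative changes at the escalating dose, the changes nearest 0, all members not called, the paralogs and their core genes, the P stalk, RPL5, RPS6, RPSA and RPS27A, and the 3 smallest p-values in each direction at the low dose. Other members were named after their values were seen, to illustrate their place in the ribosome. The fits were repeated with the brighter 50% of the probesets, single-symbol probesets only, quantile normalization, median centring, cyclic loess, a trended or a robust variance, weighted arrays, no block, a paired test of each probeset alone, a fit of all 18 arrays, the mean over a gene's probesets, 20 brightness groups, brightness at baseline, without the paralogs and without each horse. Leaving out L4 and L5 together was added after the data were examined.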

Additional observations from a re-analysis of the deposited data

Results flagged for a closer look

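Among 120 groups of values of the named genes and the median of the 69 genes, 11 held a sample that stood apart by Dixon's ratio (the gap to the nearest sample over the whole range), where chance would give about 1 in 20. On day 14 of the low dose L5 was the low sample in 8 of them: the median of the 69 genes (4.26 against 6.85 to 7.75, ratio 0.742), RPS19 (3.41 against 7.45 to 8.33, ratio 0.821), RPL22 (3.59 against 6.43 to 7.26, ratio 0.774), RPL10 (ratio 0.761), RPS27 (ratio 0.712), RPLP0 (ratio 0.732), RPL5 (4.94 against 9.55 to 10.9, ratio 0.773) and RPSA (ratio 0.778). These 8 are readings of 1 array. At the escalating dose baseline E3 stood apart for RPL26 (8.3 against 8.84 to 8.86, ratio 0.964) and for RPL10 (10.8 against 10.33 to 10.37, ratio 0.915). On day 28 E1 stood apart for RPLP2 (7.53 against 7.07 to 7.1, ratio 0.935).

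Of the 29 named genes, 20 had a change that differed between the regimens in the limma fit of the 18 arrays. Each was more negative at the escalating dose, beside 16.9% of all probesets called in that direction. Some of the genes were named for the size of their change at a dose, so this count cannot support a difference between the regimens. Beside RPL26 (-3.25) and RPS12 (-2.74), the differences were -2.73 for RPS18, -2.47 for RPL22, -2.43 for RPL14, -2.41 for RPS19, -2.15 for RPS4X, -2.03 for RPL7, -1.99 for RPS6, -1.88 for RPS27L, -1.82 for RPLP1, -1.65 for RPL39, -1.62 for RPSA, -1.48 for RPS27, -1.43 for RPL7L1, -1.38 for RPL26L1, -1.27 for RPL35A, -1.19 for RPL34, -0.91 for RPL3 and -0.79 for RPS27A. The adjusted p from limma ran from 5.09e-05 for RPL26 to 0.0247 for RPL3. Without E3 or E4 the difference of RPL3 was not called, nor was that of RPS27A without E2 or E4, of RPS27 without E1 or E2, or of RPL7L1 without E3. After quantile normalization of the 18 arrays the differences of RPSA (-0.88), RPS27L (-1.48), RPL39 (-1.13) and RPL3 (-0.76) were not called, with adjusted p from limma of 0.206, 0.0578, 0.0538 and 0.0586.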

How the results depend on the processing

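No alternative turned the direction of a called result. At the escalating dose the median change of the 69 genes was -1.57 with the filter on dim probesets, -1.03 after quantile normalization, -1.78 after median centring and -0.52 after cyclic loess, and -1.59 to -1.44 when each horse was left out. The number of genes called lower was 36 after cyclic loess and 56 to 66 otherwise, with 61 to 64 when each horse was left out. Calls over all probesets are given below for the rescalings and were not counted for the other alternatives. The large minus small subunit difference was 0.18 with the filter, 0.0376 after quantile normalization, 0.0345 after cyclic loess, 0.17 without the paralogs and 0.16 to 0.27 when each horse was left out. The median against like brightness was -0.38 among single-symbol probesets, -0.55 after cyclic loess, -0.30 by brightness at baseline and -0.69 to -0.56 when each horse was left out. The number of genes with a more negative change at the escalating dose was 33 after quantile normalization of the 18 arrays and 39 to 63 when each horse was left out. The share of all probesets was not counted in those fits. Without the horse as a block (the unpaired fit) 65 genes were called lower in place of 64, and at the low dose 0 were called in every alternative.

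Rescaling moved all probesets. The median change over all of them at the escalating dose was 0.08 as deposited, -0.10 after quantile normalization, -0.25 after median centring and -0.02 after cyclic loess, and the called probesets split into 7498 higher and 6164 lower, 5790 and 7321, 4965 and 10038, and 6745 and 5643. Of the values of single named genes under an alternative, 1265 kept their side of the threshold, 28 gained a call and 32 lost one. The 1265 include the low dose changes, of which 0 were called in any fit and which had no call to lose. All gains and losses were at the escalating dose or in the difference between the regimens. The cause of these differences was not tested. With 4 and 5 horses, small changes of dim probesets cannot be told from background.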
